A study of Mus musculus with 25 samples.

Results

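The cells described here were sorted by DNA content as secondary spermatocytes from the testis of a wild-type C57BL/6 (C57BL/6J in the study's methods) male aged 2 months and 21 days, and were chosen as all barcodes of that 1 library with at least 200 unique molecular identifiers (UMIs, each counted as 1 captured transcript). They numbered 154 of the 398 barcodes deposited for the library, and 154 of the 44,404 barcodes that reached the same minimum in the 25 libraries of the series. Beside them stood 1 library sorted as primary spermatocytes (198 barcodes) and 1 sorted as spermatids (291 barcodes), with the same strain, sex, genotype, age and mechanical dissociation in their labels. A sort used a suspension of 1 testis, and whether the 3 sorts shared a testis or an animal is not given in the sources used here. The suspension was stained with Hoechst, a dye that binds DNA, and with propidium iodide to remove dead cells, followed by Drop-seq, in which single cells share droplets with barcoded beads and transcripts are tagged at their 3′ ends. The series also held 9 wild-type whole-testis libraries of mechanical dissociation, from C57BL/6 males aged 3 months and 1 day to 9 months and 14 days, and these gave the only spread between libraries that could be set beside the sort. The sequencer was a MiSeq for the 3 sorts and for 1 of the 9 whole-testis libraries, and a HiSeq for the other 8, so that sort and sequencer can be told apart only through that 1 library.

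Primary spermatocytes pair and recombine their chromosomes in a long prophase, whose pachytene stage is the longest, and then pass through meiosis I. The products of that division are the secondary spermatocytes. They carry 1 set of chromosomes whose chromatids are still joined, they do not replicate their DNA, and they pass within hours through meiosis II to give haploid round spermatids. In DNA content they match diploid cells of the body. Entry into both divisions is driven by CDK1 with cyclins A and B and by Aurora and Polo-like kinases, and the anaphase-promoting complex, which marks cyclin B and securin for destruction, drives anaphase and exit. The X chromosome is silenced in pachytene and partly transcribed again in spermatids.

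With 1 library per sort no test between sorts was possible, so no p-value is given. Intervals are 95% exact intervals of the counts (Poisson for sums, Clopper-Pearson for shares, conditional exact for ratios) and cover counting error only. Levels are UMI counts scaled to a common total of nuclear UMIs per library, in the usual CPM unit, and lists of genes are given as percent of nuclear UMIs. Where a sum was 0, a floor of 3 UMIs over the library replaced it in a ratio.

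The 154 barcodes held 223,002 of the library's 262,054 UMIs (85.1%) and 11,900 genes with at least 1 UMI. The median barcode held 354 UMIs, the lower quartile was 229, the upper quartile 976 and the highest barcode 19,464. Only 38 barcodes reached 1000 UMIs, and the 8 deepest held 44.9% of all UMIs, so that sums over the library follow few cells. The lowest member held 200 UMIs and the highest barcode left out held 199, and 71 barcodes lay between 180 and 219 UMIs. Mitochondrial transcripts made up 0.291% of the UMIs (0.269 to 0.314%), against 2.47% in the primary sort and 0.628% in the spermatid sort. The median barcode was at 0.445%, 2.32% and 0.885% in the same order, and the mean over barcodes of the secondary sort was 0.753%. Of the 11-base barcodes, 2 were shared with another library of the series, at most 1 with any of them.

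**Figure D1:**
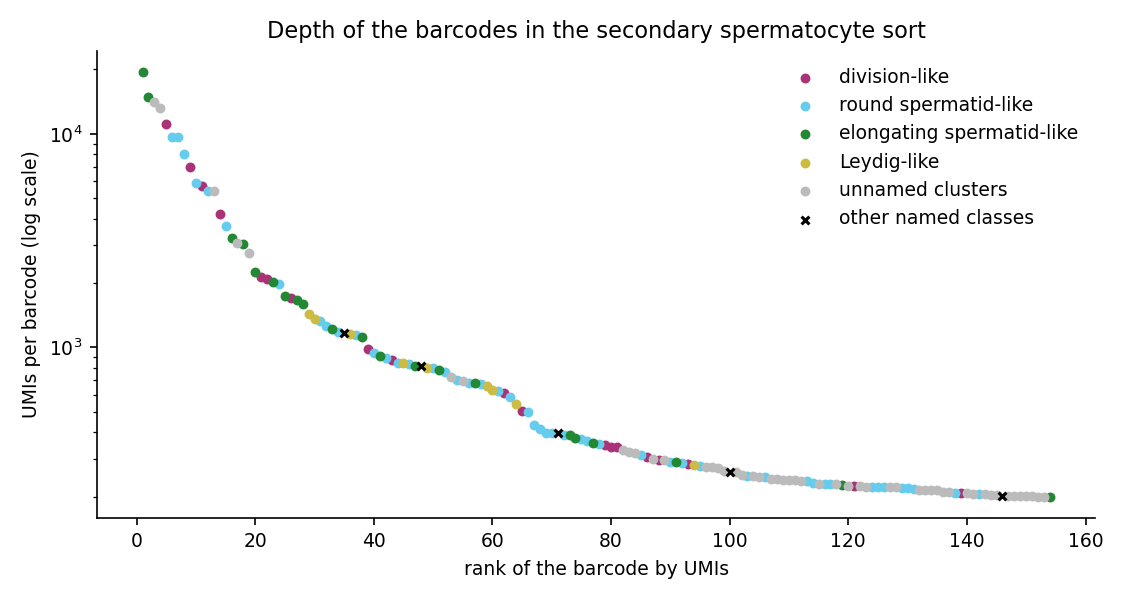
UMIs of each of the 154 barcodes (log scale) against the rank of the barcode by UMIs, with the class of each barcode as colour or cross. A few barcodes of several classes, the deepest with 19,464 UMIs, stand above a long run of barcodes near the minimum of 200 UMIs.

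The sort was a mixture of stages, and division-like barcodes were a minor part of it. Each barcode was assigned to the most likely of 22 cluster profiles made from mechanically dissociated whole-testis barcodes with at least 1000 UMIs, and clusters were named from lists of marker genes. Of the 12,640 reference barcodes 5632 were wild-type, and the others came from 6 libraries of Mlh3-/- and 2 of Cul4a-/- males, both on a B6;129 background in the labels (B6.129 for Mlh3 in the study's methods), and 2 of C57BL/6 males labelled CNP eGFP BAC TRAP. By their labels the Mlh3-/- males were aged from 2 months and 21 days to 8 months and 30 days, the Cul4a-/- males 1 month and 18 or 21 days and the CNP males 2 months and 14 or 16 days. Germ cell profiles were made from wild-type barcodes wherever a cluster had at least 20 of them, but the Leydig-like cluster that took barcodes of the sort had 7 wild-type barcodes of 232 and the telocyte-like cluster 1 of 31. The round spermatid-like class was the largest with 49 of the 154 barcodes (31.8%, 24.6 to 39.8%), followed by elongating spermatid-like cells with 21 (13.6%, 8.64 to 20.1%), meiotic division-like cells with 19 (12.3%, 7.59 to 18.6%) and Leydig-like cells with 9 (5.84%, 2.71 to 10.8%). With all 398 deposited barcodes the division-like share was 5.53% (22), the elongating spermatid-like share 7.04% (28) and the unnamed share 56.0% (223). None of the 154 was pachytene-like, and a count of 0 of 154 barcodes allows a share of up to 1.95% by the floor of 3 counts (exact interval 0 to 2.37%). A further 51 barcodes (33.1%, 25.8 to 41.1%) went to clusters that could not be named, 2 each were spermatogonia-like and telocyte-like, and 1 was leptotene/zygotene-like. The 2 spermatogonia-like barcodes held 4 UMIs of their own markers, the 2 telocyte-like barcodes 25 and the leptotene/zygotene-like barcode 3. Macrophages, T lymphocytes, endothelial and peritubular myoid cells had no cluster of their own in the reference, so such a barcode would have been placed elsewhere.

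Among the 38 barcodes with at least 1000 UMIs, the order of the classes was similar, with 11 round spermatid-like, 11 elongating spermatid-like, 7 division-like, 3 Leydig-like and 1 spermatogonia-like barcode and 5 in an unnamed cluster. By UMIs, round spermatid-like barcodes made up 29.4% of the library, elongating spermatid-like barcodes 25.7% and division-like barcodes 17.6%. The primary sort was 72.7% pachytene-like (144 of 198) with no division-like barcode, which allows up to 1.52% by the same floor (exact interval 0 to 1.85%). It also held 3 round spermatid-like barcodes with 15.2% of its UMIs. The spermatid sort was 25.1% elongating spermatid-like (73 of 291), 9.97% round spermatid-like (29), 3.78% division-like (11, 1.90 to 6.66%) and 59.8% unnamed (174). Of these 174 barcodes, 85 were in cluster 2, which scored alike for round and elongating spermatids in the reference, and 89 in cluster 8. The round spermatid-like shares of the sorts are therefore not counts of all round spermatids. A class assigned in this way depends on the reference and on the names of its clusters. In the secondary sort, 9 of the 49 round spermatid-like and 5 of the 19 division-like barcodes were ahead of the next profile by less than 3 units of log-likelihood. The same held for 45 of the 144 pachytene-like barcodes of the primary sort. The division markers act in both meiotic divisions and do not tell the first from the second. The study lists most of them among the key genes of a component named for diplotene and the divisions. In the primary sort 52.5% of their UMIs lay in pachytene-like barcodes. Whether the division-like class holds late primary spermatocytes was not tested. The reference had no class of secondary spermatocytes, so how many barcodes the label describes was not measured, and the cells are called the secondary spermatocyte sort here.

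**Figure D2:**
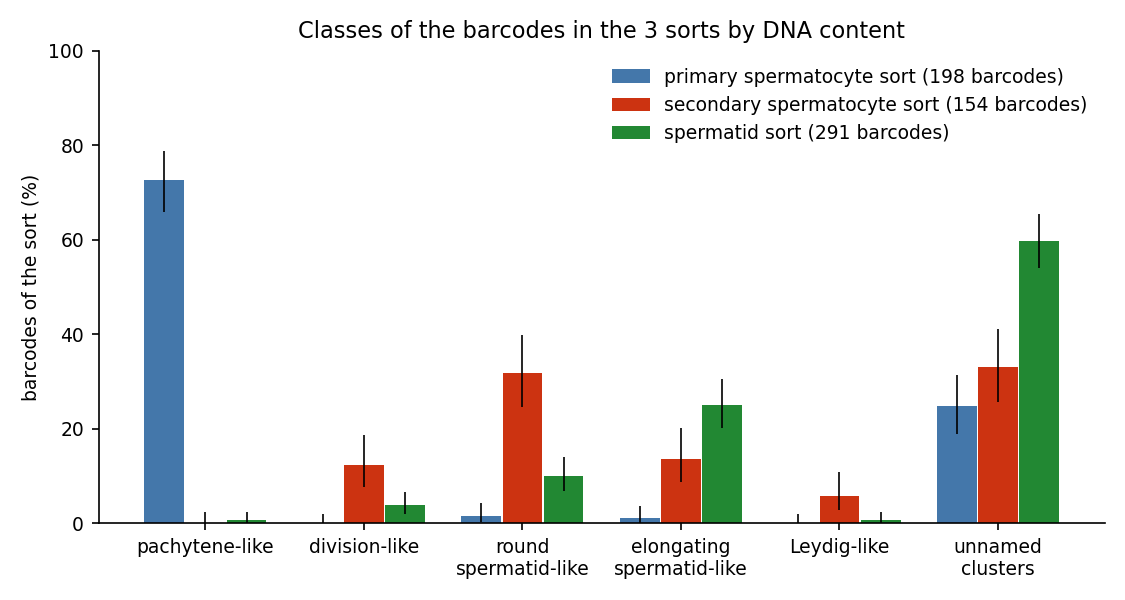
Percent of the barcodes of each sort in each class. In the secondary spermatocyte sort the round spermatid-like class (31.8%) was more frequent than the division-like class (12.3%), while the primary sort was 72.7% pachytene-like and the spermatid sort 59.8% unnamed. The unnamed barcodes of the spermatid sort include 85 in cluster 2, which scored alike for round and elongating spermatids.

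Of the 3 markers of the sort, Ccna1 and Aurka were found mostly in the division-like barcodes, and Eqtn was not. Ccna1 encodes cyclin A1, a germline partner of CDK kinases that male meiosis requires, and lies on the minus strand of chr3:55045469-55055501 (GRCm38). Aurka encodes the spindle kinase Aurora A and lies on the minus strand of chr2:172356190-172370535. Eqtn encodes equatorin, a membrane protein of the acrosome, and lies on the minus strand of chr4:94907267-94928843. The promoters of both cell-cycle genes are shown for their motifs. Factors of the MYB family, which are known to drive genes of male meiosis, bind short motifs that can be looked for. Each sequence is the 250 bases before the RefSeq transcription start, from the start-distal to the start-proximal end, taken from RefSeq (GRCm38.p6) at chr3:55055056-55055305 and chr2:172370571-172370820, both read from the minus strand. The Aurka window lies outside the gene as GENCODE gives it, and the Ccna1 window inside it. Capitals mark matches to the MYB core (AACNG, or CNGTT on the other strand) and to the CCAAT box (CCAAT or ATTGG).
Ccna1: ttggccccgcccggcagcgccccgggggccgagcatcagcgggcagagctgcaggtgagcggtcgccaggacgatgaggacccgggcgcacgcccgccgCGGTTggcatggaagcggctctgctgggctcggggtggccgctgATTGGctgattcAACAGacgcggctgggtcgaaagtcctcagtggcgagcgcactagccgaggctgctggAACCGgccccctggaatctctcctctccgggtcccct
Aurka: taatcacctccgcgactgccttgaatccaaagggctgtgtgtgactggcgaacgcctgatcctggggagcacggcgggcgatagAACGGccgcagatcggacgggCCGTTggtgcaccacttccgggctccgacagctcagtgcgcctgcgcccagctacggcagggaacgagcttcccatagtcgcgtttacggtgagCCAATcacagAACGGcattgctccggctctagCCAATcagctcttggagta

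Both windows held 3 matches to the MYB core, the Ccna1 window 1 CCAAT box and the Aurka window 2, with no overlap between matches. The letters TGACG of the CRE core, or CGTCA, were in neither. Of 32,851 promoter windows of the same length, 74.2% held the MYB core, 33.8% the CCAAT box and 17.8% the CRE core, so that these letters do not set the promoters apart. Their composition was far from the median window of 52.4% G and C and 6 CpG dinucleotides: the Ccna1 window was 71.2% G and C with 26 CpG, and the Aurka window 61.6% with 23.

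Ccna1 stood at 162 CPM in the secondary sort (36 UMIs), 268 CPM in the primary sort (28 UMIs) and 76.9 CPM in the spermatid sort (18 UMIs), and between 147 and 239 CPM in the 9 whole-testis libraries, with a median of 186. The secondary sort lay within the whole-testis range. Its ratio was 0.60 to the primary sort (0.36 to 1.03) and 2.11 to the spermatid sort (1.17 to 3.94), the latter falling to 0.83 (0.19 to 2.99) with barcodes thinned to 200 UMIs. Within the secondary sort, 22 of the 36 Ccna1 UMIs lay in the 19 division-like barcodes, which gave 561 CPM (351 to 849), and 10 in the 49 round spermatid-like ones, which gave 153 CPM (73.4 to 282). It was present in 8 of 19 division-like barcodes, with a median of 608 UMIs per barcode, and in 0 of the 9 Leydig-like barcodes, with a median of 798. The classes rest on expressed genes, Ccna1 and Aurka among them, so levels by class are a description.

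Aurka was at 117 CPM in the secondary sort (26 UMIs), 173 CPM in the primary sort (18 UMIs) and 51.2 CPM in the spermatid sort (12 UMIs). The whole-testis libraries ranged from 124 to 205 CPM, with a median of 150, all above the secondary sort. The ratio was 0.68 (0.36 to 1.31) to the primary and 2.28 (1.11 to 4.96) to the spermatid sort. Division-like barcodes held 21 of the 26 UMIs, but 10 of them came from 1 barcode. Ccna1 and Aurka occurred together in 8 barcodes, out of 20 with Ccna1 and 11 with Aurka. Ccna1 and Eqtn occurred together in 7 barcodes and Aurka and Eqtn in 2, out of 24 with Eqtn.

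Eqtn followed the spermatids. It was at 243 CPM in the secondary sort (54 UMIs), 86.3 CPM in the primary sort (9 UMIs) and 205 CPM in the spermatid sort (48 UMIs), while the whole-testis libraries ranged from 93.7 to 207 CPM with a median of 174. Round spermatid-like barcodes held 33 of the 54 UMIs at 505 CPM (348 to 710), and division-like barcodes held 1. In the primary sort 7 of the 9 UMIs came from 1 barcode. The ratio was 2.81 to the primary sort (1.38 to 6.48) and 1.19 to the spermatid sort (0.79 to 1.79). The 3 markers together were at 0.0522% of nuclear UMIs in the secondary, 0.0527% in the primary and 0.0333% in the spermatid sort.

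**Figure D3:**
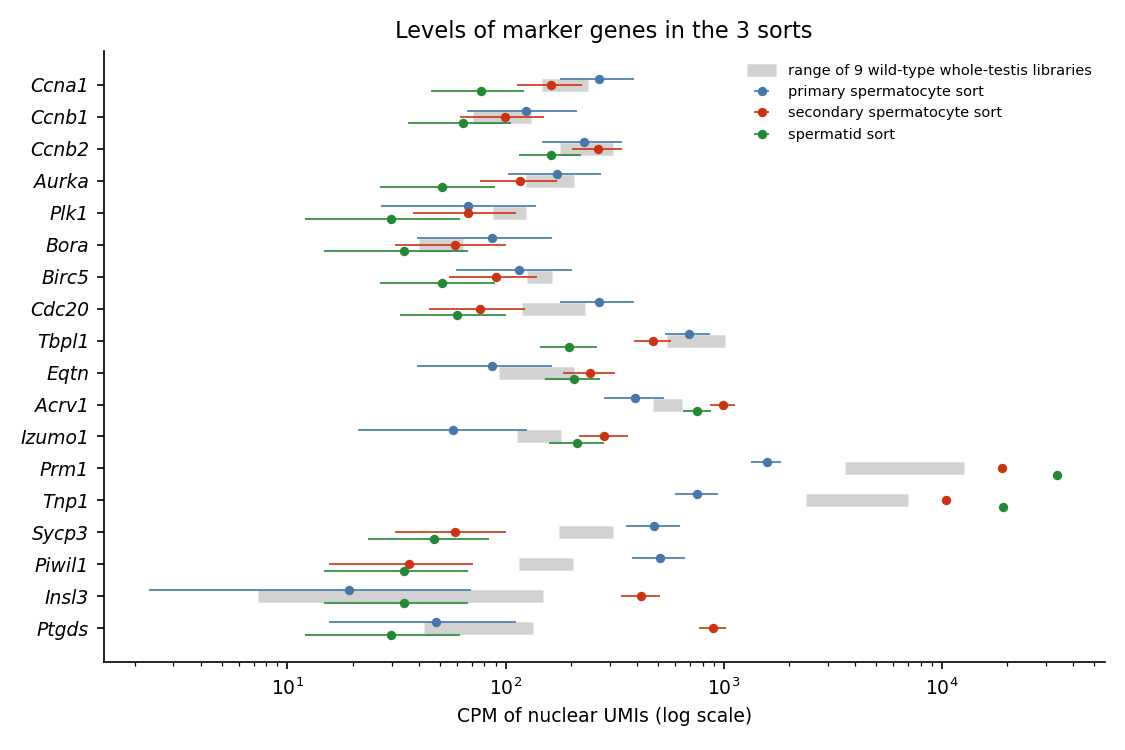
CPM of 18 genes (log scale) in the secondary, primary and spermatid sorts, with 95% counting intervals, and the range of 9 wild-type whole-testis libraries as grey bars. Division genes such as Ccna1 (162 CPM) and Aurka (117 CPM) of the secondary sort lie within or below the whole-testis range, while Eqtn (243 CPM) and the Leydig genes Insl3 (418 CPM) and Ptgds (890 CPM) lie above it.

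Summed over all barcodes, the machinery of the divisions was lower in the secondary than in the primary sort for most of its parts. It was near the level of the spermatid sort or above it. A gene was counted as higher or lower at a 2-fold difference in CPM, among genes with at least 20 UMIs in the 2 libraries together. Of 3318 such genes 26.6% were higher and 23.1% lower than in the primary sort, and of 3640 genes 6.79% were higher and 2.34% lower than in the spermatid sort. The median log2 ratio over these genes was -0.14 to the primary and 0.14 to the spermatid sort. The 12 markers of the meiotic divisions made up 0.157% of nuclear UMIs in the secondary, 0.196% in the primary and 0.0862% in the spermatid sort, and from 0.163 to 0.245% in whole testis. Against the primary sort the ratio of the list was 0.80 (0.67 to 0.96), and 0 of 9 measured members were 2-fold different. This ratio rose to 1.17 without the 5% of barcodes with most UMIs in each sort and to 1.02 when each barcode had the same weight. Against the spermatid sort it was 1.81 (1.52 to 2.17), and 5 of 10 measured members were higher.

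The markers of the division class were themselves spread over the stages. Of their UMIs in the secondary sort, 54.3% lay in the 19 division-like barcodes and 29.6% in the round spermatid-like ones. Tbpl1, a TBP-like factor of the male germline, was the most counted at 105 UMIs and 472 CPM, against 690 CPM in the primary and 196 CPM in the spermatid sort, a ratio of 0.68 (0.50 to 0.94) to the former and 2.40 (1.68 to 3.48) to the latter. Cdc25a, a phosphatase that activates CDK1, had 16 UMIs against 1 in the primary sort and 5 in the spermatid sort. Its ratio to the spermatid sort was 3.37 (1.18 to 11.8), and that to the primary sort had an interval from 1.17 to 315.

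Of the CDK1 module, 15 genes for the kinases, cyclins, CKS subunits and their regulators, 5 were measured against the primary sort with 0 higher and 2 lower, and 4 against the spermatid sort with 2 higher and 0 lower. Its sum was at a ratio of 0.51 (0.41 to 0.65) to the primary and 1.54 (1.20 to 1.98) to the spermatid sort. Cks2, a CDK subunit, had 3 UMIs in the secondary and 46 in the primary sort, a ratio of 0.031 (0.0061 to 0.095), and Cdk1 had 4 and 16 UMIs, a ratio of 0.12 (0.029 to 0.36). The B cyclins lay closer together. Ccnb1 was at 98.9 CPM in the secondary, 125 CPM in the primary and 64.0 CPM in the spermatid sort, and Ccnb2 at 265, 230 and 162 CPM.

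The 14 division kinases and partners were at a ratio of 0.63 (0.52 to 0.75) to the primary sort, with 0 of 10 measured members higher and 4 lower, and 1.09 (0.92 to 1.29) to the spermatid sort, with 2 of 8 higher and 0 lower. Cdca8, borealin of the chromosomal passenger complex, was at 45.0 CPM in the secondary and 182 CPM in the primary sort, a ratio of 0.25 (0.10 to 0.56). Incenp and Birc5, members of the same complex, had ratios of 1.01 (0.39 to 2.91) and 0.78 (0.36 to 1.75), which 15 and 20 UMIs leave wide. Plk1, the Polo-like kinase of division entry, was at 67.5 CPM in the secondary and 67.1 CPM in the primary sort. Of its 15 UMIs, 12 lay in division-like barcodes, as did 14 of the 15 UMIs of Incenp. Gsg2, the histone kinase haspin, was at 639 CPM in the secondary, 690 CPM in the primary and 798 CPM in the spermatid sort, all below the 1202 to 1534 CPM of whole testis.

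The anaphase-promoting complex and its regulators, 21 genes, were at a ratio of 0.45 (0.36 to 0.56) to the primary sort, with 0 of 8 measured members higher and 4 lower, and 1.10 (0.88 to 1.37) to the spermatid sort, where none of 8 differed by 2-fold. Cdc20, its activator, was at a ratio of 0.28 (0.15 to 0.54) to the primary sort and Pttg1, the separase inhibitor securin, at 0.25 (0.14 to 0.43).

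Cohesin went the other way for some subunits. Its list was at a ratio of 0.83 (0.63 to 1.10) to the primary and 1.28 (1.00 to 1.63) to the spermatid sort, with 2 of 4 measured members higher and 0 lower against the primary sort and 1 of 5 higher and 0 lower against the spermatid sort. Rad21, the mitotic kleisin, had 33 UMIs against 3 in the primary sort, a ratio of 5.16 (1.62 to 26.3), and Smc3, the core ATPase, had 26 against 4, a ratio of 3.05 (1.06 to 12.0). Smc1b, the meiotic ATPase subunit, was lower than in the primary sort by a ratio of 0.50 (0.32 to 0.80), just short of 2-fold. Rec8, the meiotic kleisin, had 16, 2 and 8 UMIs in the secondary, primary and spermatid sorts.

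Genes of the earlier prophase were low. The synaptonemal complex, which pairs chromosomes in prophase, was at a ratio of 0.38 (0.32 to 0.46) to the primary and 0.95 (0.80 to 1.14) to the spermatid sort, with 0 of 6 measured members higher and 3 lower against the primary sort. Sycp1, Sycp2 and Sycp3 were at ratios of 0.11 (0.054 to 0.21), 0.054 (0.025 to 0.10) and 0.12 (0.061 to 0.23). Syce2 and Syce3, of the central element, were at 1.98 (1.07 to 3.96) and 1.79 (1.02 to 3.32), so the list did not move as 1. Of the 13 Sycp3 UMIs of the secondary sort, 11 were in division-like barcodes. The pachytene markers were at a ratio of 0.35 (0.30 to 0.40) to the primary sort, with 5 of 6 measured members lower and 0 higher, and 1.34 (1.14 to 1.58) to the spermatid sort, with none of 5 different by 2-fold. Mael, a piRNA pathway gene, carried most of the list's UMIs (252 of 347) and was at 1133 CPM in the secondary and 959 CPM in the primary sort. Without Mael the list was at ratios of 0.12 and 0.85. Piwil1, a piRNA-binding protein of pachytene, was at a ratio of 0.071 (0.029 to 0.15) to the primary sort with 8 UMIs, 7 of them in division-like barcodes. The leptotene/zygotene markers were at a ratio of 0.30 (0.24 to 0.37) to the primary sort and 0.76 (0.60 to 0.95) to the spermatid sort.

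The X-linked share of UMIs, which played no part in the assignment of classes, differed between the summed classes of the sort. In the whole secondary sort X-linked UMIs were 1.62% of the autosomal UMIs (1.56 to 1.67%), against 0.433% (0.394 to 0.475%) in the primary and 1.73% (1.67 to 1.78%) in the spermatid sort. The 9 whole-testis libraries ranged from 1.11 to 1.24%. The sum of the secondary sort hides a wide range, since the share was 0.374% (0.316 to 0.440%) in its division-like, 1.61% (1.52 to 1.72%) in its round spermatid-like and 2.08% (1.96 to 2.20%) in its elongating spermatid-like barcodes. In whole testis the same classes ranged from 0.323 to 0.497%, from 1.31 to 1.57% and from 1.95 to 2.16%. The values of the sort lay within these ranges, or in the round spermatid-like class just above.

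The division-like barcodes came from 3 clusters, in each of which 1 barcode held most of the UMIs: 11,152 of 19,802 in cluster 3, 5714 of 10,390 in cluster 13 and 7010 of 9156 in cluster 4. In cluster 3 (6 barcodes) the X-linked share was 0.179% (0.125 to 0.249%), in cluster 13 (7 barcodes) 0.549% (0.415 to 0.713%) and in cluster 4 (6 barcodes) 0.603% (0.453 to 0.786%). In the whole-testis libraries these clusters ranged from 0.111 to 0.210%, from 0.379 to 0.511% and from 0.717 to 0.825%, so that the order was the same but the sort was above the range for cluster 13 and below it for cluster 4, with intervals that reach both ranges. The pachytene-like barcodes of the primary sort were at 0.200% (0.167 to 0.238%), above the 0.0855 to 0.144% of that class in whole testis. Among barcodes with at least 1000 UMIs, the 7 division-like ones ranged from 0.119 to 0.784% with a median of 0.199%, and the 11 round spermatid-like ones from 1.08 to 2.30% with a median of 1.58%, without overlap. Over barcodes of all depths they did overlap, with the 19 division-like ones from 0 to 1.04% (median 0.361%) and the 49 round spermatid-like ones from 0 to 3.41% (median 1.35%).

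**Figure D4:**
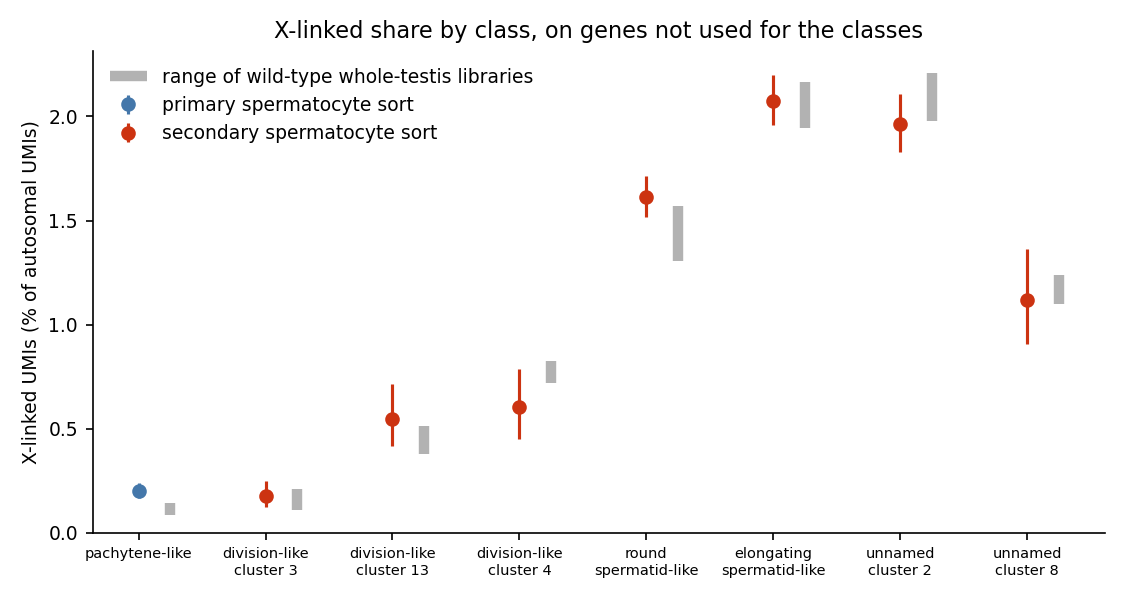
X-linked UMIs as percent of autosomal UMIs by class, with 95% counting intervals, for the pachytene-like barcodes of the primary sort and the classes of the secondary sort, beside the range of wild-type whole-testis libraries as grey bars (9 libraries, 7 for cluster 8). Of the classes plotted for the secondary sort, the share is lowest in division-like cluster 3 (0.179%) and highest in the elongating spermatid-like class (2.08%). The Leydig-like class (3.00%) is not plotted.

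The DUF622 genes, a testis family that includes Speer genes, whose members are near copies and whose reads cannot be divided among them with certainty, were also kept out of the assignment. Their summed level was 477 CPM in the secondary, 364 CPM in the primary and 474 CPM in the spermatid sort. In the secondary sort it was 0 UMIs in division-like cluster 3 (exact interval 0 to 187 CPM), but 1545 CPM (883 to 2509) in cluster 13 and 1534 CPM (838 to 2573) in cluster 4. Round spermatid-like barcodes of cluster 6 held 2458 CPM (1480 to 3839) and those of cluster 1 held 671 CPM (438 to 983), while elongating spermatid-like barcodes held 87.4 CPM (28.4 to 204). In whole testis cluster 3 ranged from 69.2 to 277 CPM, cluster 13 from 818 to 1185 CPM and cluster 4 from 1217 to 1889 CPM. Of the X-linked Ssxb family, 4 UMIs were found in the secondary, 1 in the primary and 18 in the spermatid sort, and 3 of the 4 were in division-like cluster 4.

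Levels of the division genes in these clusters rest on few UMIs, and their intervals overlapped. Aurka was at 861 CPM (502 to 1379) in cluster 3, 193 CPM (23.4 to 698) in cluster 13 and 219 CPM (26.5 to 791) in cluster 4. Ccna1 was at 709 CPM (388 to 1190), 289.7 CPM (59.7 to 847) and 548 CPM (178 to 1278), and Ccnb2 at 557 CPM (278 to 997), 772 CPM (334 to 1522) and 767 CPM (308 to 1580) in the same order. Genes of other lists were counted too. Calm2, a calmodulin gene of the primary sort, was at 912 CPM (540 to 1441) in cluster 3. All 7 Piwil1 UMIs of the division-like class and 8 of its 11 Sycp3 UMIs were in this cluster. In cluster 4, Calm2, Piwil1 and Nol8 had 0 UMIs, the acrosomal genes Acrv1 and Spaca1 had 6 and 4, and Tbpl1 stood at 1753 CPM (1002 to 2846). Cluster 13 had 2 UMIs of Acrv1 and 5 of Spaca1. In the reference, Hbb-bs, an erythroid gene, had the highest fold in cluster 3 beside Ccna1, Ccnb1, Aurka and Plk1, and none of the 12 division markers was among the 10 leading genes of cluster 4, which DUF622 and Ssxb genes led.

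The 10 genes with most UMIs held 7.86% of all nuclear UMIs and were Prm1, Prm2, Tnp1, Ldhc, Tnp2, Smcp, Meig1, Fabp9, Ropn1l and Odf2. Of these Ldhc, Meig1, Fabp9 and Ropn1l were near the level of the primary sort, at ratios from 0.78 to 1.04. Prm1 and Prm2 encode protamines and Tnp1 and Tnp2 the transition proteins that replace histones before them. Prm1 was at 18,943 CPM in the secondary, 1572 CPM in the primary and 33,815 CPM in the spermatid sort, against 3603 to 12,639 CPM in whole testis. Its ratio was 12.0 (10.3 to 14.2) to the primary and 0.56 (0.54 to 0.58) to the spermatid sort. Tnp2 was at ratios of 12.5 (9.63 to 16.6) and 0.51 (0.48 to 0.55). Of the 4212 Prm1 UMIs, 3340 lay in the 21 elongating spermatid-like barcodes and 16 in the 19 division-like ones.

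The elongating spermatid markers made up 6.42% of nuclear UMIs in the secondary, 0.798% in the primary and 11.3% in the spermatid sort, ratios of 8.05 (7.51 to 8.64) and 0.57 (0.56 to 0.58). Against the primary sort 13 of 14 members were higher and 0 lower, and against the spermatid sort 0 of 14 differed by 2-fold. The chromatin condensation list, which shares the protamine and transition protein genes with it, was at 6.43 (6.02 to 6.88) and 0.56 (0.55 to 0.57), with 8 of 13 measured members higher and 3 lower against the primary sort. Hspa2, a chaperone for transition proteins, was among those lower at a ratio of 0.44 (0.34 to 0.58).

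The round spermatid markers were at 0.633% of nuclear UMIs in the secondary, 0.277% in the primary and 0.538% in the spermatid sort, and at 0.382 to 0.521% in whole testis, all below the secondary sort. The ratio was 2.29 (2.01 to 2.60) to the primary sort, with 10 of 15 members higher and 0 lower, and it became 5.63 without the primary sort's 3 round spermatid-like barcodes, 1.52 at a minimum of 500 UMIs and 1.57 at or under the median mitochondrial share. To the spermatid sort it was 1.18 (1.09 to 1.27), with 1 of 15 higher and 0 lower. Acrv1, an acrosomal protein, was at 989 CPM in the secondary, 393 CPM in the primary and 756 CPM in the spermatid sort, and Izumo1, which binds the egg membrane, at 283, 57.5 and 214 CPM. Catsper4, a sperm calcium channel subunit, was the member at 2-fold against the spermatid sort, at a ratio of 2.07 (1.30 to 3.36).

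Organelles that form over several stages gave smaller differences in their sums, while single members differed in both directions. Of all measured genes 26.6% were higher and 23.1% lower than in the primary sort. The acrosome list of 23 genes was at 1.31% of nuclear UMIs in the secondary, 1.26% in the primary and 1.17% in the spermatid sort. Against the primary sort 9 of 22 measured members were higher and 1 lower, with opposite directions within the list: Spink2, a protease inhibitor, was at a ratio of 0.56 (0.47 to 0.65) and Acrv1 at 2.52 (1.80 to 3.60). The flagellum list was at 1.87%, 1.79% and 1.81%, with 6 of 19 members higher and 4 lower than in the primary sort. Odf2, of the outer dense fibres, was at 2.03 (1.71 to 2.42) and Akap3, a fibrous sheath anchor, at 4.56 (2.62 to 8.56), while Rsph1, of the radial spokes, was at 0.27 (0.22 to 0.33) and the dynein chain gene Dnah8 at 0.16 (0.11 to 0.25). Against the spermatid sort none of the 22 acrosome or 19 flagellum genes differed by 2-fold, where 6.79% of all measured genes were higher and 2.34% lower.

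**Figure D5:**
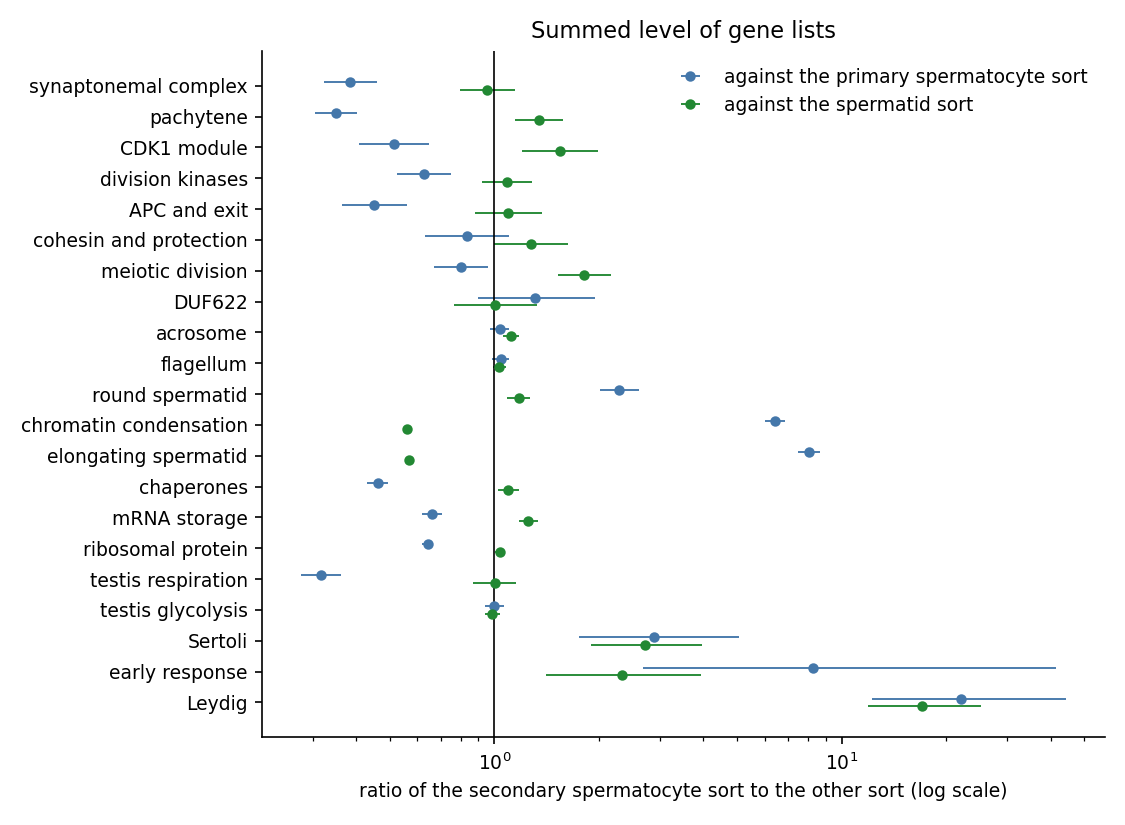
Ratio of the summed level of each gene list in the secondary spermatocyte sort to the primary sort and to the spermatid sort (log scale), with 95% counting intervals. Lists of prophase and division lie below 1 against the primary sort, the elongating spermatid markers lie at 8.05 against it and at 0.57 against the spermatid sort, and the Leydig markers lie far above 1 against both.

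Several other pathways of the germ line were lower than in the primary sort and close to the spermatid sort. Chaperones were at 0.46 (0.43 to 0.50) and 1.10 (1.02 to 1.18), with 6 of 13 members lower and 1 higher than in the primary sort. The member that was higher was Hspa1l, a testis form of HSP70, with 89 UMIs against 2. Subunits of the respiratory chain with a testis form were at 0.32 (0.28 to 0.36) and 1.00 (0.87 to 1.16), with 4 of 4 measured members lower than in the primary sort and none of 4 different from the spermatid sort by 2-fold. Their somatic forms were at 0.31 (0.25 to 0.39) and 1.12 (0.87 to 1.44), with 1 of 1 measured member lower than in the primary sort. Without their most abundant gene the ratio to the primary sort was 1.47 (0.61 to 4.09). The primary sort also had the higher mitochondrial share of UMIs (2.47% against 0.291%), whose part in these ratios was not tested.

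Glycolytic enzymes with a testis form were at a ratio of 1.00 (0.94 to 1.06) to the primary and 0.99 (0.94 to 1.04) to the spermatid sort, but their members diverged against the primary sort, with 4 of 9 higher and 1 lower. Gapdhs and Pgk2, of spermatids, were at 4.92 (3.57 to 6.95) and 2.96 (2.03 to 4.44), and Ldhc, a lactate dehydrogenase expressed from pachytene on, was at 0.78 (0.72 to 0.84). Somatic glycolytic genes were at 0.76 (0.61 to 0.96) and 1.02 (0.84 to 1.24). The mRNA storage list, RNA-binding proteins that hold transcripts for later translation, was at 0.66 (0.62 to 0.71) and 1.25 (1.17 to 1.33), with 1 of 9 measured members higher and 1 lower than in the primary sort. Of 77 measured ribosomal protein genes 0 were higher and 20 lower than in the primary sort. Of all measured genes 26.6% were higher and 23.1% lower, so that the number lower was near the overall share. None of the 77 differed from the spermatid sort by 2-fold. The summed ratios were 0.64 (0.62 to 0.67) and 1.04 (1.00 to 1.07).

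Over all genes, 882 were at least 2-fold higher and 767 at least 2-fold lower than in the primary sort, and 247 were higher and 85 lower than in the spermatid sort. Which direction held more genes against the primary sort depended on the setting, with 142 higher and 174 lower on thinning to 200 UMIs per barcode. Without the minimum of 20 UMIs the counts were 1538 and 6389. There the floor of 3 UMIs made a gene with 1 UMI in the secondary and 0 in the primary sort count as lower. Those 2 counts therefore give no direction. By the bound of the counting interval nearest to 1, the named genes farthest above the primary sort were Tnp1, Prm1, Tnp2, Akr1cl, Pex5l, Ptgds and Tuba8. Akr1cl, an aldo-keto reductase, had 67 UMIs against 0, with 61 of the 67 in the 9 Leydig-like barcodes, and Pex5l had 124 UMIs against 2. The named genes farthest below it were Hmgb2, Calm2, Mphosph8, Cks2, Sycp2, Ccp110, Psip1, Gmcl1 and Cdc42ep3. Hmgb2, a chromatin protein, had 1 UMI against 44, a ratio of 0.011 (0.00026 to 0.063). Farthest below the spermatid sort were Ttc21b, Cstl1, Prm2, Tnp2, Sptbn1, Fscn3, Klk1b8, Tnp1, Prm1 and Spatc1, and Ttc21b, a gene of ciliary transport, had 3 UMIs against 24.

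Of 3053 genes measured against both sorts, 120 had intervals above 1 against both and 14 below 1 against both. The 10 farthest above both were Ptgds, Agt, Insl3, Lcn2, Gstm1, Cyp17a1, Akr1cl, Fabp3, Igfbp7 and Apoe, and 4 of these are Leydig markers of the list. The 9 Leydig-like barcodes also held most UMIs of the others. They held 50 of 58 for Agt, 85 of 103 for Gstm1 and 61 of 67 for Akr1cl. For Fabp3, Igfbp7 and Apoe they held 51 of 55, 25 of 36 and 51 of 74. Those farthest below both were Ttc21b, Ccp110, Rb1cc1, Fsip2, Rpgrip1, Fnbp4, Dctn3, Ttll6, Tex30 and Calm2. The ratio of Ccp110 to the spermatid sort was above 1 on thinning (3.76, 0.20 to 222) and with equal weights (1.25). The genes farthest above the spermatid sort were Ptgds, Cyp17a1, Agt, Gstm1, Insl3, Lcn2, Fabp3, Akr1cl, Gstm2 and Dcn, of which Ptgds, Cyp17a1, Insl3 and Lcn2 are on the Leydig list and Dcn is on the telocyte list. Barcodes at or under the median mitochondrial share of their sort held few UMIs of such genes, and there Gstm1 was at a ratio of 0.68 (0.098 to 7.52) to the primary and 0.98 (0.18 to 5.25) to the spermatid sort. None of the 10 genes farthest above both sorts is on the list of division markers.

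The UMIs of the Leydig markers lay mostly in the Leydig-like barcodes. Leydig cells are the diploid steroid-producing cells between the tubules. Their 8 markers were at 0.233% of nuclear UMIs in the secondary sort (517 UMIs), 0.0105% in the primary sort (11 UMIs) and 0.0137% in the spermatid sort (32 UMIs), and from 0.0114 to 0.0422% in whole testis. The ratios were 22.0 (12.2 to 44.4) and 17.0 (11.9 to 25.1), and 4 of the 8 members reached the minimum of UMIs. The 9 Leydig-like barcodes held 475 of the 517 UMIs (91.9%). Insl3, a peptide hormone, was found in 7 of them, Cyp17a1, an enzyme of androgen synthesis, in 7, and Ptgds, a prostaglandin synthase, in 8. In 8 of the 9 barcodes at least 3 of the 8 markers were found, and 1 barcode had none. Leydig-like barcodes also held 2.00% mitochondrial UMIs and an X-linked share of 3.00% (2.62 to 3.43%). When only barcodes at or under the median mitochondrial share of their sort were kept, the ratios fell to 1.02 to the primary and 2.28 to the spermatid sort.

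These barcodes were not of Leydig genes alone. All 9 held Clu and Defb19, which are on the Sertoli list and gave 40 and 44 UMIs there. The Sertoli genes Cst9 and Aard had 0 there, but only 0 and 3 UMIs in the whole sort. In the reference, the Leydig-like cluster that took these barcodes had Insl3, Cyp17a1, Akr1cl, Malat1 and Ptgds among its leading genes. Clu was among the leading genes of another Leydig-like cluster of the reference. The Sertoli list was at a ratio of 2.89 (1.75 to 5.06) to the primary and 2.72 (1.90 to 3.96) to the spermatid sort, with 0.0499% of nuclear UMIs in the secondary sort against 0.0237 to 0.0468% in whole testis. Of its 111 UMIs, 89 lay in the 9 Leydig-like barcodes. At or under the median mitochondrial share the Sertoli ratios were 0.34 and 0.72. The immediate early genes, which respond to stress and to dissociation, were at 8.29 (2.69 to 41.5) and 2.33 (1.41 to 3.94) with 53 UMIs in the sort, or 0.0238% of nuclear UMIs against 0.00288 to 0.00751% in whole testis. Of these 53 UMIs, 40 lay in the 9 Leydig-like barcodes. At or under the median mitochondrial share the ratios were 1.87 and 0.83. All 13 UMIs of Fos were in the Leydig-like barcodes, as were 123 of the 208 UMIs of Malat1, a nuclear RNA. Prm1, which Leydig cells do not express, was found there at 2784 CPM with 21 UMIs, of which 13 came from 1 barcode. Ldhc was at 1193 CPM with 9 UMIs. These values are sums over the 9 barcodes, and the source of the germ cell transcripts was not tested.

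Other cell types were scarce. Telocyte markers had 36 UMIs in the secondary sort, 0 in the primary sort and 3 in the spermatid sort, and 24 of the 36 were of Dcn. Spermatogonia markers had 13, 4 and 5 UMIs, macrophage markers 5, 0 and 4, T lymphocyte markers 11, 3 and 14, peritubular myoid markers 2, 1 and 2 and endothelial markers 1, 0 and 2 in the secondary, primary and spermatid sorts. The 4 erythroid genes had 0 UMIs in all 3 sorts. The RNA quality genes Malat1 and Neat1 with both mitochondrial ribosomal RNAs were at 0.288% of nuclear UMIs in the secondary, 2.05% in the primary and 0.567% in the spermatid sort.

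The unnamed barcodes fell mainly into 2 kinds. Cluster 8 took 38 of them, with a median of 224.5 UMIs, and its profile had only 38 genes at 2-fold or more over the rest of the reference. In these barcodes the elongating spermatid markers made up 3.77% of nuclear UMIs, the round spermatid markers 0.671% and the Leydig markers 0.125%, and the X-linked share was 1.12% (0.905 to 1.36%), within the 1.10 to 1.24% of the cluster in whole testis. Cluster 2 took 11 barcodes with 40,969 UMIs, 2 of them among the 8 deepest. Its elongating and round spermatid markers were at 6.46% and 0.867% in sum, the former from 1.84 to 11.3% over the 5 barcodes with at least 1000 UMIs. Its X-linked share was 1.96% (1.83 to 2.11%) and its reference cluster scored alike for round and elongating spermatids. That cluster scored highest for round spermatids but had Hemgn, an elongating spermatid marker of the list, among its 10 leading genes, and so was not named. The remaining 2 barcodes went to cluster 11.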

How the data were processed

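Drop-seq libraries were made from sorted cells and whole testes, and transcripts were tagged at their 3′ ends. The submitters' processing notes name bcl2fastq, STAR 2.5.3a and the builds mm10 and GRCm38. The authors deposited 1 table of raw UMI counts for each library, and 25 tables were read. Gene symbols were matched to GENCODE vM21 by name, and otherwise to symbols or synonyms of RefSeq. No match was found for 1452 symbols, which held 1.45% of the UMIs of the secondary sort. The sort labelled secondary spermatocytes held 223,002 UMIs in 154 barcodes of at least 200 UMIs, the primary sort 106,941 in 198 and the spermatid sort 235,699 in 291. Each sort was 1 library, and all 3 were sequenced on a MiSeq.

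UMIs were summed over barcodes and divided by the UMIs of nuclear genes, since the mitochondrial share differed between sorts. Genes with at least 20 UMIs in 2 libraries together were compared, and counted as different at 2-fold. Cells are not replicates, so no test was run and intervals cover counting error only. For stages, 12,640 whole-testis barcodes of mechanical dissociation with at least 1000 UMIs (5632 of them wild-type) were clustered with leidenalg 0.10.2 at a resolution of 1. A cluster was named from marker lists where at least 3 markers were 2-fold higher and 50 genes led it, and stayed unnamed where a second class, not adjacent in development, scored within 0.25 on the log2 scale or its 10 leading genes spoke for another class. These thresholds followed earlier work on the same data. Profiles were made from wild-type barcodes for germ cell and unnamed clusters with at least 20 of them, and otherwise from all genotypes. Each sorted barcode went to the profile of highest multinomial likelihood, with 1 CPM added. X-linked, Y-linked, mitochondrial, DUF622 and Ssxb genes were left out of clustering and assignment. Profiles of unnamed clusters with fewer than 20 wild-type barcodes were not used, which left out 1 cluster led by mitochondrial, hemoglobin and Sertoli genes.

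No doublet caller was run, as the sorts hold too few cells. An alternative left out the 5% of barcodes with most UMIs in each sort, which does not detect mixed barcodes of lower depth. Other alternatives changed the UMI minimum, denominator, weighting of barcodes, mitochondrial filter, fold, gene filter and reference. The procedures were run on simulated counts, with barcodes drawn from the reference profiles themselves. These counts held no mixed barcodes and no class absent from the reference. They cannot show that the classes hold for this sort.

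The barcodes, gene lists, alternatives and rules were chosen with earlier results of these data known. Besides the genes of the lists, text names came by rule: the 10 genes with most UMIs, and the 10 genes whose counting interval lay farthest above or below 1 against each sort and against both, leaving out names of the Gm and Rik kind. A few results on single genes are not reported here. Promoters came from RefSeq (GRCm38.p6). Python 3.11.15, numpy 2.4.6, scipy 1.17.1 and pandas 2.3.3 were used.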

Additional observations from a re-analysis of the deposited data

Results flagged for a closer look

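Over the 9 wild-type whole-testis libraries of mechanical dissociation, 8 quantities were examined for a library standing apart from the others, and 2 had one. By the rule used, chance gives such a library in about 1 of 20 quantities, and 8 quantities are too few to set 2 against that. In 1 library the Sertoli list made up 0.0237% of nuclear UMIs, which was the lowest value, against a median of 0.0388% and a highest of 0.0468%. In 1 library the telocyte list made up 0.0108%, the highest value, against a median of 0.00293%. Both lists were set beside the secondary spermatocyte sort, which stood at 0.0499% and 0.0162%, above every whole-testis library, but 89 of its 111 Sertoli-list UMIs lay in the 9 Leydig-like barcodes and 25 of its 36 telocyte-list UMIs in the 2 telocyte-like ones.

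The 244 barcodes of the secondary sort under the minimum of 200 UMIs entered no comparison, but they carried the same kinds of signal. Their elongating spermatid markers made up 3.41% of nuclear UMIs (3.23 to 3.60%), against 6.42% in the 154 barcodes above the minimum and 0.798% in the primary sort. The X-linked share relative to autosomal UMIs was 1.28% (1.17 to 1.40%), against 1.62% above the minimum and 0.433% in the primary sort. Division markers made up 0.168% (0.130 to 0.214%) and Leydig markers 0.207% (0.164 to 0.258%), against 0.157% and 0.233% above the minimum. Of these barcodes 57 were assigned to round spermatid-like, 7 to elongating spermatid-like, 4 to Leydig-like and 3 to division-like clusters, and 172 to unnamed ones.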

How the results depend on the processing

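No paired analysis was possible because each sort was 1 library, with no residual degrees of freedom, and it is not known whether the sorts shared an animal. Of the values under alternatives for results that answer a comparison, 126 stayed within a set limit and 73 moved beyond it. The limit was the counting interval for ratios between sorts and for shares, and a fixed fold for counts of genes. For ratios to whole testis it was the standard deviation between libraries. The cause of a move was not tested beyond what each alternative removes. Depth limited all of it: the median barcode held 354 UMIs, 8 barcodes held 44.9% of the UMIs, and genes with few UMIs had wide intervals.

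Against the primary sort, with every barcode weighted equally, the ratio was 0.27 for the pachytene list, 1.02 for division, 5.07 for round and 5.44 for elongating spermatid markers. With barcodes thinned to 200 UMIs these were 0.24, 0.98, 5.48 and 5.35. Without the 5% of barcodes with most UMIs they were 0.29, 1.17, 4.92 and 7.07. With at least 500 UMIs, division was at 0.64, round 1.52, elongating 10.2 and Leydig 45.9. At or under the median mitochondrial share, pachytene was at 0.41, round 1.57 and Leydig 1.02. Without the round spermatid-like barcodes of the primary sort, an alternative chosen after seeing the data, round was at 5.63 and elongating at 8.65. With all deposited barcodes elongating was at 7.49. Without the most abundant gene of the list, pachytene was at 0.12 and elongating at 7.07.

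Against the spermatid sort, thinning gave 0.99 for pachytene, 2.19 for division, 1.01 for round and 0.50 for elongating. Equal weights gave 1.03 for round and 0.49 for elongating. A minimum of 500 UMIs gave 1.34 and 0.55, and the median mitochondrial share 1.35 and 0.58, with 2.28 for Leydig. Elongating was at 0.53 with all deposited barcodes and 0.52 without the 5% with most UMIs, and pachytene was at 0.85 without its most abundant gene. Against the 1 whole-testis library sequenced like the sorts, in place of the median of 9, pachytene was at 0.69, division 0.96, round 1.66, elongating 1.19 and Leydig 5.51.

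The counts of genes followed the filter. Genes lower than the primary sort numbered 1443 at a minimum of 10 UMIs. At 50 UMIs 494 were higher and 267 lower, and with no filter 1538 and 6389. At 3-fold 394 were lower, thinning left 142 higher and 174 lower, and without the 5% of barcodes with most UMIs (chosen after seeing the data) 490 were lower. Against the spermatid sort 639 were higher and 239 lower at 10 UMIs, 64 and 20 at 50 UMIs, 3023 and 2319 with no filter, and 68 and 11 at 3-fold. Centring on the median of all genes gave 134 lower, thinning 67 higher, and leaving out the 5% with most UMIs 133 lower.

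With all deposited barcodes 7.04% were elongating spermatid-like, 5.53% division-like and 56.0% unnamed, and 25.3% were unnamed with a reference of at least 2000 UMIs per barcode. The pachytene-like share was 0 under all 8 alternatives tried for the stages. The X-linked share was 1.45% as a mean over barcodes, 1.51% without its most abundant gene and 1.49% without the 5% with most UMIs (chosen after seeing the data). The mitochondrial share was 0.397% with all deposited barcodes, 0.753% as a mean over barcodes and 0.0987% without both ribosomal RNAs.

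The division list to the primary sort (0.80 before any change) and the pachytene list to the spermatid sort (1.34) had values above that crossed 1. Beyond these, crossings to the other side of 1 were looked for only in ratios that differed from 1 by at least 2-fold before any change. Smaller ratios that crossed are not listed. The crossings found lay mainly at or under the median mitochondrial share. Against the primary sort these were the Sertoli list (0.34), the telocyte list (0.11), Cyp17a1 (0.34), Ptgds (0.68), Agt (0.23), Gstm1 (0.68), Akr1cl (0.23) and Fabp3 (0.51). In that alternative the telocyte list, Agt, Akr1cl and Fabp3 had 0 UMIs in at least 1 of the sorts, and such ratios rest on the floor of 3 UMIs. Against the spermatid sort the ratios that crossed were those of the Sertoli list (0.72), the telocyte list (0.33), the early response list (0.83), Cyp17a1 (0.98), Lcn2 (0.78), Agt (0.65), Gstm1 (0.98), Akr1cl (0.65) and Fabp3 (0.98). The others were the somatic respiration list without its most abundant gene (1.47 to the primary sort), and, against the spermatid sort, Ccna1 (0.83) and Plk1 (0.94) on thinning, Ccp110 (3.76 on thinning, 1.25 with equal weights) and Pex5l (0.89 with equal weights).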

Other observations

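The spermatid-like barcodes of the secondary spermatocyte sort also came from several clusters, and these differed in genes kept out of the assignment. Of the 49 round spermatid-like barcodes, 18 were in cluster 6, 24 in cluster 1 and 7 in cluster 19, and the median depth was 332 UMIs in the first and 1254 in the last. In cluster 19, 1 barcode held 9624 of the 18,816 UMIs. X-linked UMIs were 1.17% of autosomal UMIs in cluster 6 (0.939 to 1.44%), 1.73% in cluster 1 (1.60 to 1.86%) and 1.57% in cluster 19 (1.39 to 1.76%). DUF622 transcripts were at 2458 CPM (1480 to 3839) in cluster 6, 671 CPM (438 to 983) in cluster 1 and 213 CPM (57.9 to 544) in cluster 19. Mitochondrial UMIs were 1.62%, 0.152% and 0.0213% of all UMIs in the same order, and their part in these differences was not tested.

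Of the 21 elongating spermatid-like barcodes, 12 were in cluster 0 and 9 in cluster 5. In cluster 0 the barcodes with 19,464 and 14,840 UMIs held most of the 45,542 UMIs. The X-linked share was 2.16% (2.02 to 2.30%) in cluster 0 and 1.76% (1.53 to 2.03%) in cluster 5, and DUF622 transcripts numbered 5 UMIs (110 CPM, 35.7 to 256) and 0 UMIs (exact interval 0 to 316 CPM). Prm2, of late protamine expression, and Spem1 were among the leading genes of cluster 5 in the reference, and Tnp1 and Tnp2, the transition proteins, among those of cluster 0.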
